A study of Homo sapiens with 10 samples.

Results

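H3K27ac regions in the transcribed ends and bodies of genes were examined in H1975 cells, a human line established from lung adenocarcinoma that carries a mutant EGFR, the receptor tyrosine kinase that drives its growth. Regions were chosen by their annotation: an exon, a 5' UTR, a 3' UTR, or a downstream stretch of up to 3 kb past the end of a gene. This gave 3716 of 67387 annotated regions (5.51%) of hg38, all of 1 fixed width. Of them, 2159 were exon regions, 147 were 5' UTR regions, 981 were 3' UTR regions and 429 were downstream regions. H3K27ac was measured by ChIP-seq in 3 groups of 3 biological replicates, next to 1 input library pooled from chromatin without immunoprecipitation. The DMSO group grew without drug for 21 days and then received DMSO for 3 days. The osimertinib DTP group received osimertinib, an inhibitor of mutant EGFR, at 500 nM for 24 days. The osimertinib DTP + AZD5153 group received osimertinib at 500 nM for 21 days and then AZD5153 at 150 nM for 3 days, and the labels do not say whether osimertinib was continued. All 3 groups were the same cell line, so the comparisons describe 1 tumour model only.

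H3K27ac is placed by the acetyltransferases p300 and CBP and marks active promoters and enhancers. Enhancers are often found in introns and between genes, but they can also overlap exons and untranslated regions, where an annotation by gene structure names them after the transcript they fall in. On a highly active gene the mark can also extend from the promoter into the first exons. The annotation of a region therefore says where it lies and does not say what it regulates.

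Gene structure and gene name came from different rules in the annotation. A region was given the gene with the nearest transcription start site (TSS), while its exon belonged to whichever transcript it overlapped. Of the 2159 exon regions, 815 (37.7%) lay in an exon of the gene they were assigned to, 257 lay in an exon of another gene, and 1087 (50.3%) lay in an exon of a transcript that carried no gene ID. First exons made up 403 exon regions, and 400 of these belonged to transcripts without a gene ID. Internal exons made up 859, last exons 620 and transcripts with a single exon 277. Against RefSeq gene bounds on GRCh38.p14, 953 of 981 3' UTR regions lay in a protein-coding gene, but only 665 lay within the bounds of their assigned gene. The regions were assigned to 2345 genes, of which 1507 had 1 region. Protein-coding genes were the assigned gene of 2993 regions, long non-coding RNA genes of 530 and miRNA genes of 126. Merged within 1000 bp, the regions formed 2839 loci, so that neighbouring regions are not independent of each other.

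H3K27ac over these regions was low beside that at promoters. The median of the mean level over the 9 libraries was 6.82 CPM (counts scaled by library size and TMM factors) for exon regions, 7.75 for 5' UTR, 6.27 for 3' UTR and 7.10 for downstream regions. Promoter regions within 1 kb of a TSS had a median of 11.9, introns 6.41 and distal intergenic regions 6.74. Among exon regions, those in first exons had a median of 8.52. The input held a median of 13 counts per member region. With the input scaled to its counts over all counted regions, the median ratio of level to input was 1.08 for member regions. By class it was 1.11 for exon, 1.15 for 5' UTR, 1.00 for 3' UTR and 1.14 for downstream regions. Promoter regions within 1 kb had 1.74 and introns 1.08. Both sides were scaled within counted regions, so this ratio is not the enrichment over the whole genome. A peak called by the authors overlapped between 75.4% and 80.2% of the regions in 8 libraries, and 56.9% in osimertinib DTP + AZD5153 replicate 3. Here and below, an overlap of any length counted as a peak at the region. All 9 libraries had a peak at 1026 regions (27.6%), and 0 regions had none in any library.

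Total counts ranged from 6263443 to 10463351 per H3K27ac library, and the input had 1870885. Promoters of 7 of 7 epithelial marker genes carried a peak in at least 8 libraries. This held for 2 of 4 lung lineage, 1 of 5 fibroblast, 1 of 4 endothelial and 1 of 5 leukocyte marker genes. The library osimertinib DTP + AZD5153 replicate 3 stood apart from the others, with the lowest total and a Spearman correlation of 0.430 and 0.354 with replicates 1 and 2 of its group. Its share of counts in promoter regions within 1 kb was 52.9%, against 32.3% and 31.5% in replicates 1 and 2. Osimertinib DTP replicate 2 also had a high promoter share, 50.8%, against 33.9% and 29.3% in replicates 1 and 3. Each comparison with these libraries is given with the values without them where the call depends on it, and their part in the other values was not tested.

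The share of all counts that fell in the exon, UTR and downstream regions averaged 3.75% ± 0.17 for the DMSO libraries, 3.53% ± 0.17 after osimertinib alone and 3.58% ± 0.55 when AZD5153 followed (SD, n = 3 each). In order of replicates the DMSO shares were 3.62, 3.95 and 3.69% and the osimertinib DTP shares 3.56, 3.35 and 3.69%. With AZD5153 they were 3.79, 3.99 and 2.96%, so that replicate 3 was the lowest of all libraries. The difference was -0.221 percentage points for osimertinib DTP against DMSO, -0.175 for AZD5153 against DMSO and 0.046 for AZD5153 against osimertinib DTP. A two-sided exact permutation test gave p = 0.2 for the first and 0.9 for both others. As 0.1 is the smallest value that 3 against 3 allows, this test cannot decide whether the shares differ. Exon regions alone held 2.32% ± 0.12 of the DMSO counts and 2.10% ± 0.10 of the osimertinib DTP counts (SD, n = 3), with all osimertinib DTP libraries below all DMSO libraries (exact permutation p = 0.1, adjusted p = 1 over 12 tests of classes).

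Osimertinib DTP cells were compared with DMSO cells to ask which of these regions differ in cells that lived through long EGFR inhibition. With edgeR's quasi-likelihood test at an adjusted p under 0.05, 336 of the 3716 regions were higher in osimertinib DTP (9.04%) and 361 were lower (9.71%). Over all 157919 regions tested, 5.58% were called higher and 5.13% lower, and over all annotated regions 6.98% and 7.22%. The calls lay in 273 loci that were higher and 307 that were lower, assigned to 252 and 283 genes. By class, 182 exon regions were higher and 229 lower, 8 and 11 of the 5' UTR regions, 108 and 84 of the 3' UTR regions, and 38 and 37 of the downstream regions. The median log2 fold change was 0.01 for exon, 0.17 for 5' UTR, 0.30 for 3' UTR and -0.06 for downstream regions, beside 0.15 for all regions tested. With DESeq2's size factors the median over the 3716 regions moved from 0.09 to -0.04 and that of all regions tested to 0.03, so these medians carry no direction. Called regions lay far from these medians, with a median log2 fold change of 2.61 for higher and -2.57 for lower exon regions.

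The number of calls depended on single libraries. Without osimertinib DTP + AZD5153 replicate 3, which enters the shared estimate of the spread, 729 regions were higher and 769 lower. Without DMSO replicate 1, 2 or 3 the higher calls numbered 172, 41 and 65 and the lower calls 240, 25 and 107. Without osimertinib DTP replicate 1, 2 or 3 they numbered 244, 157 and 148 higher and 152, 93 and 84 lower. DESeq2 called 424 higher and 605 lower. The balance of directions within a class turned as well. Exon regions had more higher than lower calls without osimertinib DTP replicate 1, 2 or 3 (124 and 96, 79 and 56, 74 and 50) and without DMSO replicate 2 (24 and 18). The 5' UTR regions had 7 and 3, 5 and 4, and 4 and 2 without osimertinib DTP replicate 1, 2 or 3. They had 2 and 0 without DMSO replicate 2, and 25 and 22 without osimertinib DTP + AZD5153 replicate 3. For 3' UTR regions lower calls were the more numerous without DMSO replicate 3 (23 and 28) and with DESeq2 (124 and 141). For downstream regions they were so without DMSO replicate 1 or 3 (21 and 26, 5 and 9) and without AZD5153 replicate 2 or 3 (40 and 45, 65 and 82). The same held for downstream regions with the replicate number as a block (38 and 40) and with DESeq2 (48 and 61).

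**Figure D1:**
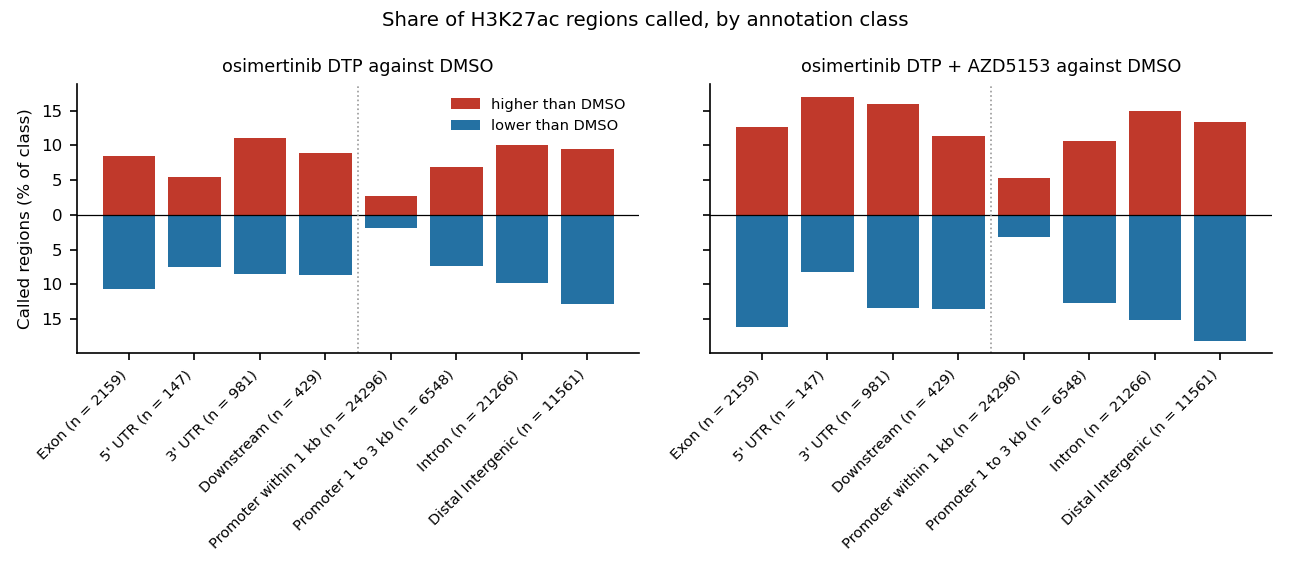
Share of H3K27ac regions called higher (drawn above 0) or lower (drawn below 0) than DMSO, in % of each annotation class, for osimertinib DTP (left) and osimertinib DTP + AZD5153 (right). The dotted line parts the 4 classes described here from promoters, introns and distal intergenic regions, and promoters within 1 kb have the shortest bars in both panels, with 2.78% called higher and 1.85% lower in the left panel.

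The called share of exon, 3' UTR and downstream regions lay between that of promoter regions at 1 to 3 kb and that of distal intergenic regions, and that of 5' UTR regions lay below both and above that of promoter regions within 1 kb. In either direction, 19.0% of exon, 12.9% of 5' UTR, 19.6% of 3' UTR and 17.5% of downstream regions were called in osimertinib DTP against DMSO. The shares were 19.9% for introns, 22.3% for distal intergenic regions, 14.3% for promoter regions at 1 to 3 kb and 4.63% for promoter regions within 1 kb. Among downstream regions, 12.3% of those within 1 kb of the gene's end, 19.4% at 1 to 2 kb and 20.4% at 2 to 3 kb were called. First exons had the lowest share among exon regions, 14.9%, beside 19.1% for internal and 23.1% for last exons. These shares are counts of regions that share loci and levels, and the differences between classes were not tested.

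The called share fell with the level of the mark. Annotated regions were split into 4 bins of equal number by their mean CPM, with limits at 4.83, 7.87 and 14.8. Of the exon, UTR and downstream regions, 1155 fell in the lowest bin and 28.1% of them were called, against 16.8% and 16.5% in the middle bins and 8.48% of 660 in the highest. Promoter regions within 1 kb fell from 12.9% to 1.58%, and introns from 29.3% to 8.57%. In each bin the share of these regions was close to that of introns and above that of promoters, a difference that was not tested.

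**Figure D2:**
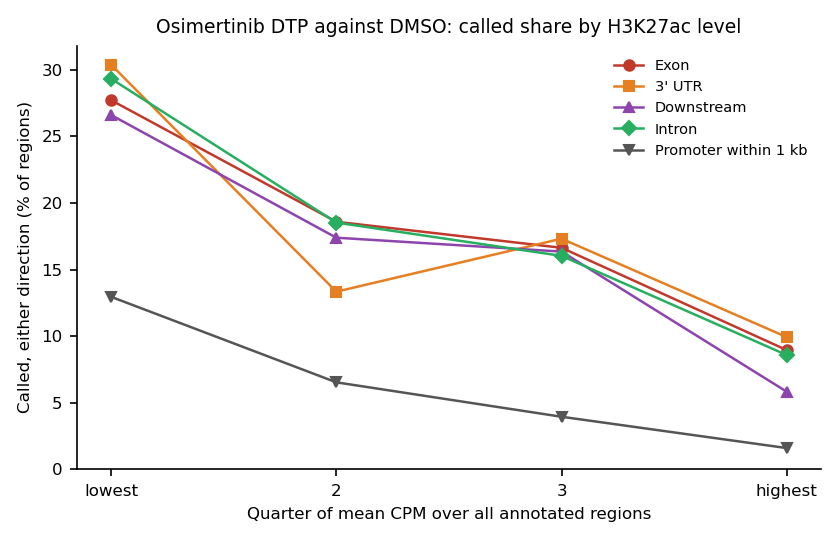
Share of regions called in either direction in osimertinib DTP against DMSO, in %, by bin of the mean CPM over all annotated regions, for 3 of the classes described here, introns and promoter regions within 1 kb. Exon and downstream regions run close to introns in each bin, from near 30% down to under 10%, while promoters start at 12.9%. The 3' UTR regions start at 30.4%, lie at 13.3% in the second bin, beside 18.5% for introns, and at 17.3% in the third, and end at 9.92%.

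Peak calls overlapped in part with the calls of the test. At 437 regions (11.8%) the 3 osimertinib DTP libraries had a peak and the 3 DMSO libraries had none, and 247 of these were called higher, which is 73.5% of all higher calls. At 419 regions (11.3%) the reverse held, and 245 of these were called lower, 67.9% of all lower calls. Over all annotated regions the same patterns were found at 8.79% and 8.12%, and held 74.9% of the higher and 68.9% of the lower calls. In AZD5153 replicates 1 and 2, 353 of the 437 regions had a peak in both libraries and 322 of the 419 had one in neither. With replicate 3, which had a peak at fewer regions than any other library, the numbers were 185 with a peak in all 3 and 294 with none. Over all annotated regions, AZD5153 replicates 1 and 2 both had a peak at 5108 of 5924 regions and neither had one at 4242 of 5474.

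Among exon regions, those with the smallest p in osimertinib DTP against DMSO went from close to no signal to a clear peak, or the reverse. The regions named by class in the comparisons with DMSO were taken by p among called regions whose levels did not overlap between the compared groups, so the lack of overlap was fixed by that choice. A region in a transcript with a single exon, 36.7 kb from the TSS of ZNF431, a KRAB zinc finger gene (chr19:21222604-21223105), had 0.363, 0.103 and 0.201 CPM in DMSO and 6.60, 13.6 and 10.7 in osimertinib DTP. The log2 fold change was 5.43 ± 0.71 (SE, adjusted p = 0.00273), and the DMSO level rests on 7 counts in all. The last exon of the long non-coding RNA LINC00323 (chr21:41141076-41141577) rose from 0.0907, 0.207 and 0.201 CPM to 7.46, 6.96 and 7.05 (5.33 ± 0.70, adjusted p = 0.00273), with 5 counts over the DMSO libraries. Exon 3 of 4 of a transcript of HPS5, which encodes a subunit of the BLOC-2 complex that forms lysosome-related organelles (chr11:18313997-18314498), had 0.272, 0.207 and 0.805 CPM in DMSO and 10.3, 10.2 and 14.5 in osimertinib DTP (4.73 ± 0.67, adjusted p = 0.00273). In all 3 regions every osimertinib DTP library was above every DMSO library and the libraries with AZD5153 stayed high, from 5.03 to 16.5 CPM.

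Exon regions that fell had clear DMSO signal to begin with. Exon 14 of 38 of IQGAP3, a scaffold protein of proliferating cells (chr1:156551631-156552132), had 21.1, 31.3 and 25.1 CPM in DMSO and 1.82, 0.835 and 0.906 in osimertinib DTP (-4.42 ± 0.64, adjusted p = 0.00273). Exon 18 of 21 of COG5, a subunit of the Golgi tethering complex COG (chr7:107230458-107230959), fell from 7.44, 19.4 and 11.7 CPM to 0.478, 0.139 and 0.504 (-5 ± 0.78, adjusted p = 0.00313). In exon 17 of 18 of TANGO6, a gene of secretory transport (chr16:69040099-69040600), the levels were 21.4, 36.4 and 28.9 CPM in DMSO and 3.15, 0.974 and 1.71 in osimertinib DTP (-3.86 ± 0.62, adjusted p = 0.00338). No library overlapped between the groups in these regions, and with AZD5153 the highest value was 2.60 CPM. The promoter regions of IQGAP3, COG5 and TANGO6 had log2 fold changes of -1, 0.12 and 0.11 and were not called.

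The 5' UTR regions were few and lay a median of 7.59 kb from the assigned TSS. HPS5 had the smallest p here too, 9.7 kb from its assigned TSS (chr11:18311934-18312435), with 0.907, 0.516 and 0.704 CPM in DMSO and 12.4, 12.5 and 20.8 in osimertinib DTP (4.40 ± 0.64, adjusted p = 0.00273). The region of TMPRSS15, which encodes enteropeptidase (chr21:18383445-18383946), rose from 0.0907, 0.310 and 0.101 CPM to 3.35, 4.31 and 3.93 (4.44 ± 0.87, adjusted p = 0.00629). In the direction of lower levels, PAK6, a p21-activated kinase (chr15:40256963-40257464), went from 14, 22.4 and 20.8 CPM to 2.01, 1.81 and 1.61 (-3.39 ± 0.65, adjusted p = 0.00589). RCL1, a factor of ribosomal RNA processing (chr9:4832750-4833251), went from 8.98, 19.7 and 11.4 CPM to 1.91, 1.67 and 0.705 (-3.22 ± 0.65, adjusted p = 0.00711). Without DMSO replicate 2 the adjusted p of PAK6 was 0.0516 and that of RCL1 0.0648, so that neither was called, and RCL1 lost its call in 2 of the 9 fits without a library.

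Among 3' UTR regions, the change of smallest p was in ATP13A4, a P-type ATPase (chr3:193483705-193484206). Its levels were 0.363, 0.103 and 0.302 CPM in DMSO, then 13.2, 22.4 and 21.7 in osimertinib DTP and 35.6, 41.5 and 6.38 with AZD5153 (6.13 ± 0.84 for osimertinib DTP against DMSO, adjusted p = 0.00273). ARID5B, a DNA-binding partner of a histone demethylase (chr10:62092926-62093427), rose from 2.81, 1.14 and 0.805 CPM to 26.6, 28.5 and 35.6 (4.24 ± 0.62, adjusted p = 0.00273). The zinc finger gene ZNF99 (chr19:22754360-22754861) had 0.181, 0.207 and 0.402 CPM in DMSO, then 3.82, 6.40 and 9.57 in osimertinib DTP, and 1.30, 1.86 and 1.74 with AZD5153 (4.58 ± 0.70 for osimertinib DTP against DMSO, adjusted p = 0.00292). Its libraries with AZD5153 lay between the other groups without overlap, but that difference from osimertinib DTP was not called (-2.01 ± 0.60, adjusted p = 1).

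Lower 3' UTR regions included MYLK, the myosin light chain kinase (chr3:123739471-123739972), with 19.9, 40.4 and 27.2 CPM in DMSO and 2.96, 1.81 and 2.72 in osimertinib DTP (-3.53 ± 0.59, adjusted p = 0.00371). KYNU, the kynureninase of tryptophan breakdown (chr2:142947126-142947627), fell from 3.99, 9.09 and 4.32 CPM to 0.382, 0.278 and 0.201 (-4.26 ± 0.76, adjusted p = 0.00421), and with AZD5153 only 1 count was seen over the 3 libraries. A 3' UTR region assigned to HMGA2-AS1 lay inside HMGA2, which encodes an architectural chromatin protein (chr12:65952230-65952731), and fell from 3.99, 7.85 and 4.22 CPM to 0.287, 0.278 and 0.201 (-4.32 ± 0.79, adjusted p = 0.00456). Every osimertinib DTP library was below every DMSO library in all 3. Leaving out DMSO replicate 2 gave adjusted p values of 0.0613 for KYNU and 0.0598 for HMGA2-AS1.

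Downstream regions moved by a similar size. The region past FAM107A, an actin-associated stress gene (chr3:58561043-58561544), had 0.816, 0.929 and 0.603 CPM in DMSO and 6.02, 15.9 and 8.06 in osimertinib DTP (3.64 ± 0.62, adjusted p = 0.00371). That past the pseudogene MKRN9P (chr12:87779261-87779762) rose from 0.726, 0.207 and 0.402 CPM to 8.99, 5.57 and 5.14 (3.83 ± 0.68, adjusted p = 0.00418, and 0.0512 without DMSO replicate 2). Downstream of the non-coding gene FLJ42351 (chr2:112640385-112640886) the levels fell from 28.9, 48.4 and 26.7 CPM to 2.29, 4.17 and 3.12 (-3.44 ± 0.58, adjusted p = 0.00371). Past CREG2, a secreted glycoprotein gene (chr2:101395832-101396333), they fell from 13.1, 20.1 and 16.6 CPM to 1.15, 0.974 and 1.91 (-3.60 ± 0.62, adjusted p = 0.00374). In each of these regions the 2 groups did not overlap.

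**Figure D3:**
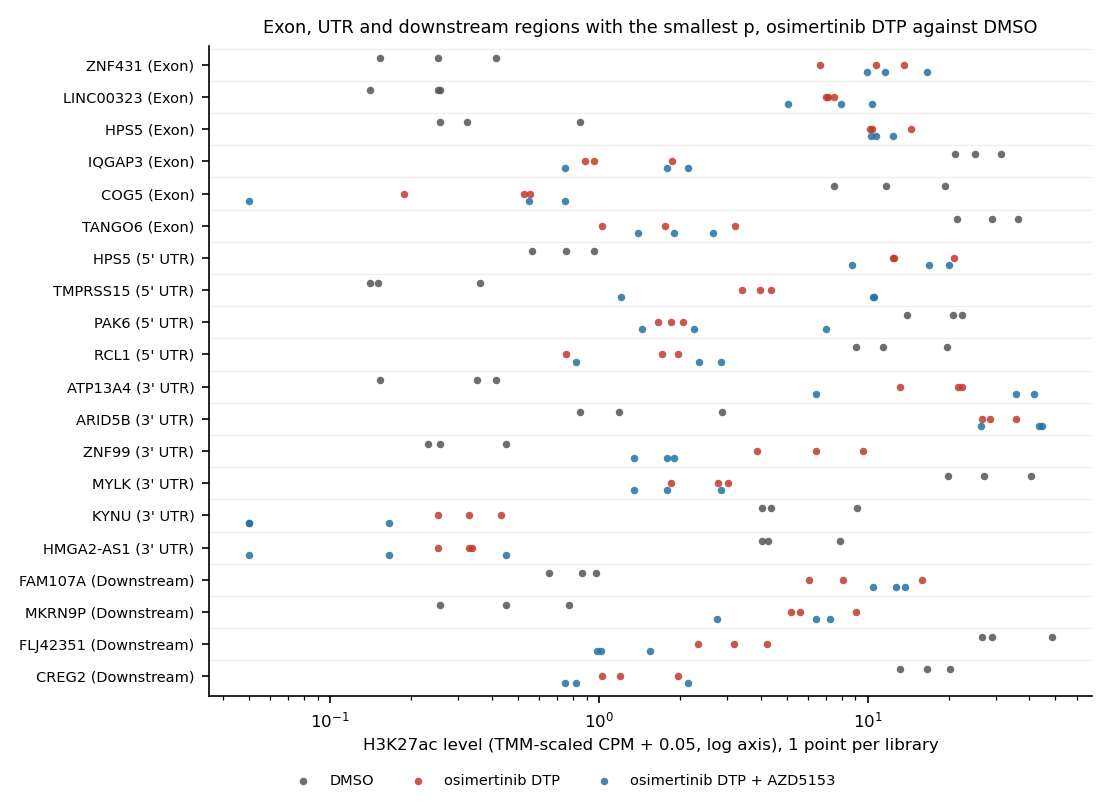
H3K27ac level in every library (TMM-scaled CPM on a log axis, with 0.05 added so that values of 0 can be drawn) at the 20 regions with the smallest p per class and direction in osimertinib DTP against DMSO. DMSO points (grey) lie apart from osimertinib DTP points (red) in every row, as the choice of these regions required, and most points with AZD5153 (blue) lie on the side of osimertinib DTP, with ZNF99 between the groups.

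In genes with several regions the directions mostly agreed within a gene. SUSD1, which encodes a membrane protein with sushi domains, had the most regions, 14, of which 11 were exon, 2 were 3' UTR and 1 was downstream. All 14 had a positive log2 fold change in osimertinib DTP against DMSO, from 0.67 to 3.32, and 7 were called. The one with the largest change was 25.8 kb past the TSS (chr9:112032169-112032670), with 1.54, 1.24 and 1.51 CPM in DMSO, then 14.1, 6.82 and 22.1 in osimertinib DTP and 12.5, 15 and 5.61 with AZD5153 (3.32 for osimertinib DTP against DMSO, adjusted p = 0.0057). At its promoter region SUSD1 changed by -0.68 and was not called. The exon regions beyond 19 kb lay in transcripts without a gene ID and outside SUSD1 itself. Instead of 7, 2 regions were called without DMSO replicate 1, 0 without replicate 2, 2 without replicate 3, 4 without osimertinib DTP replicate 1 or 2 and 2 without replicate 3, and 13 without osimertinib DTP + AZD5153 replicate 3.

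MCF2L2, a guanine nucleotide exchange factor gene, had 9 exon regions. Between 20.9 and 28.3 kb from its TSS 7 neighbouring regions had log2 fold changes of -1.52 to -3.02, and 5 were called lower. At chr3:183376769-183377270 the levels were 2.90, 4.75 and 4.73 CPM in DMSO, then 0.382, 0.278 and 0.806 in osimertinib DTP, and 0.1, 0.233 and 0 with AZD5153. With the replicate number as a block 3 regions of MCF2L2 were called lower, and without DMSO replicate 1 the number was 2, without DMSO replicate 2 or 3 or osimertinib DTP replicate 1 or 2 it was 0, and without osimertinib DTP replicate 3 it was 1. EPHB4, an ephrin receptor, had 8 regions, of which 3 past its 3' end were called lower. The nearest of these, downstream of the gene (chr7:100800699-100801200), fell from 14, 19.7 and 20.4 CPM to 4.02, 3.76 and 3.63, while the 3' UTR region of EPHB4 itself was at 22, 35.8 and 12.8 CPM beside 27.8, 40.1 and 35 in DMSO and was not called. The others lay in ZAN, the gene beyond. Lower calls at EPHB4 numbered 0 without DMSO replicate 2 or 3 or osimertinib DTP replicate 3, and 1 without osimertinib DTP replicate 1 or 2.

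In osimertinib DTP against DMSO, 5 further genes with many regions had between 0 and 3 calls each. PISD had 7 regions, of which 3 lay in PRR14L, and 2 of the 7 were called higher (0 without DMSO replicate 2 or 3, 1 without DMSO replicate 1 or any osimertinib DTP library, 4 without osimertinib DTP + AZD5153 replicate 3). PLB1, a phospholipase gene, had 10 regions with 0 called in this comparison, and SLC2A1, the glucose transporter GLUT1, had 7 with 0 called and log2 fold changes from -0.74 to 0.81. MTMR3 and PPP1R12B had 7 each, of which 3 and 2 were called higher. Leaving out DMSO replicate 2 or 3 brought the calls of MTMR3 and PPP1R12B to 0, as did leaving out DMSO replicate 1 or osimertinib DTP replicate 2 or 3 for MTMR3, and without osimertinib DTP + AZD5153 replicate 3 they numbered 7 and 5.

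Of 47 genes with at least 5 regions, 5 had every region called in the same direction in osimertinib DTP or in osimertinib DTP + AZD5153 against DMSO. They are named here after their values were seen. Merged within 1000 bp, their regions formed 4 loci at FHL2, 5 at CDCP1, 4 at FYB1, 2 at ZNF431 and 1 at CEMIP2. Neighbouring regions of a gene are therefore not separate observations. FHL2, a transcriptional cofactor with LIM domains, had 6 regions, 3 in 3' UTRs, 2 in exons and 1 in a 5' UTR, and all 6 were lower in osimertinib DTP, with log2 fold changes of -1.99 to -3.07. CDCP1, a transmembrane substrate of Src kinases, had 6 regions of which 5 were lower in osimertinib DTP and 6 with AZD5153. FYB1, an adaptor protein gene, had 5 exon regions and ZNF431 had 5 regions, all lower and all higher in osimertinib DTP, respectively, and 3 of the ZNF431 regions lay inside ZNF714. CEMIP2, a cell surface hyaluronidase, had 4 downstream regions and a 3' UTR region, of which 4 were higher in osimertinib DTP and 5 with AZD5153. The downstream region at chr9:71682764-71683265 held 1.18, 0.516 and 0.402 CPM in DMSO, then 6.5, 5.98 and 8.16 in osimertinib DTP and 16.1, 12.2 and 9.47 with AZD5153 (4.14 ± 0.63 with AZD5153 against DMSO, adjusted p = 0.00129). Without DMSO replicate 2 the calls in osimertinib DTP against DMSO numbered 0 for FHL2, CDCP1, FYB1 and CEMIP2 and 2 for ZNF431, and without DMSO replicate 3 they numbered 0, 0, 3, 0 and 3. Without osimertinib DTP replicate 1, 2 or 3 they numbered 3, 1 and 2 for FHL2 and 0 each time for CDCP1, without replicate 3 they numbered 1 for FYB1 and 3 for ZNF431, and without DMSO replicate 1 they numbered 3 for CDCP1. With AZD5153 against DMSO the calls at CDCP1 numbered 2 without DMSO replicate 2 and 3 without DMSO replicate 3 or AZD5153 replicate 1, those at CEMIP2 3 without DMSO replicate 2, and those at ZNF431 2 without DMSO replicate 1 or 3 or AZD5153 replicate 2, instead of 6, 5 and 4.

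**Figure D4:**
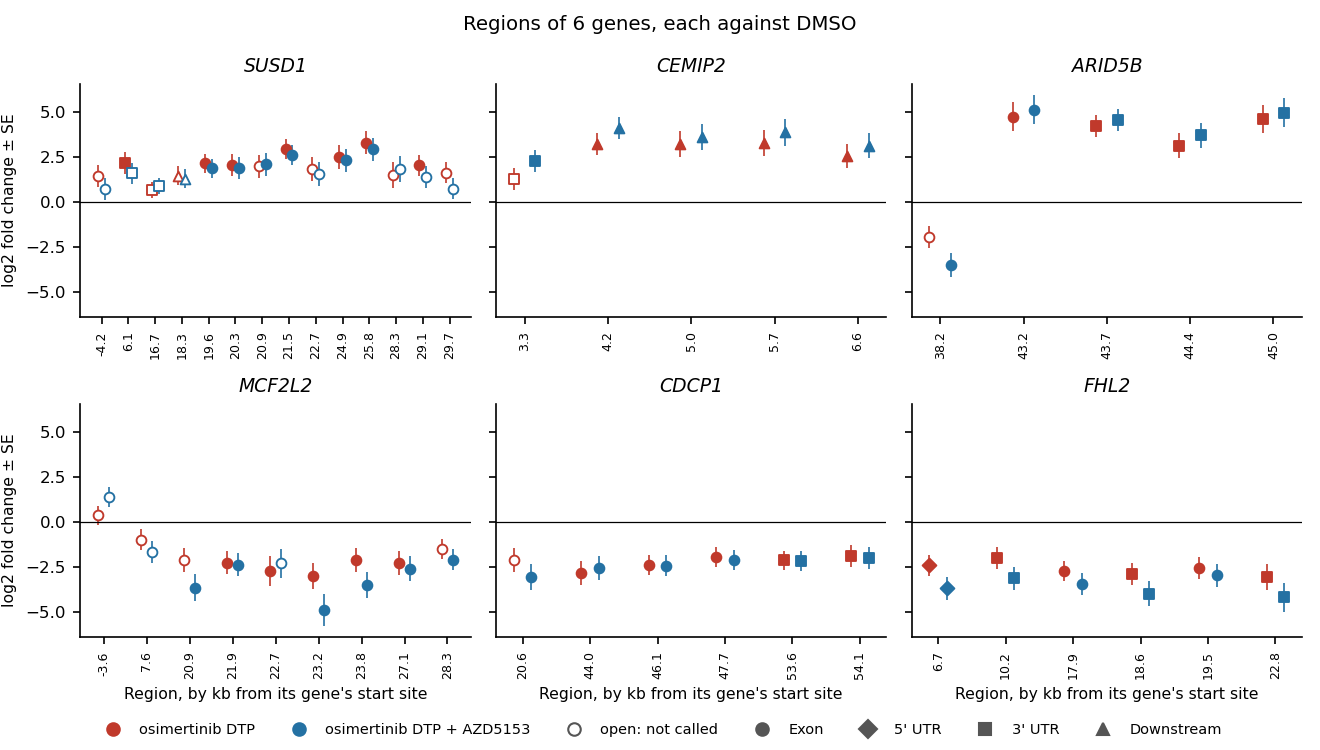
Log2 fold change against DMSO with its SE for each exon (circle), 5' UTR (diamond), 3' UTR (square) and downstream (triangle) region of 6 genes, in order of distance from the TSS in kb. Filled symbols are called and open symbols are not, and SUSD1 and CEMIP2 lie above 0 throughout, CDCP1 and FHL2 below 0 throughout, while ARID5B has 1 region below 0 and 4 above.

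Of 114 genes with at least 2 called regions in osimertinib DTP against DMSO, 4 had regions called in both directions, namely GBF1, PDLIM1, SHISA4 and SPTBN1. In GBF1, a Golgi guanine nucleotide exchange factor, exon 4 of 40 fell from 7.07, 6.40 and 3.82 CPM to 1.43, 0.696 and 0.906, and exon 20 rose from 1.72, 1.55 and 0.905 CPM to 12.6, 16.1 and 28.6. Without any 1 DMSO library or osimertinib DTP replicate 2 or 3, 0 of the 4 had calls in both directions, and without osimertinib DTP replicate 1 or AZD5153 replicate 1 GBF1 and PDLIM1 did. With AZD5153 against DMSO 10 of 180 such genes had calls in both directions, the same 4 and ARID5B, GCNT2, LIFR, LINC01132, PYGB and ZNF366. Of these 10, 3 kept both directions without DMSO replicate 1, 2 without DMSO replicate 2 or 3, 6 without osimertinib DTP replicate 1 or AZD5153 replicate 2 and 3 without AZD5153 replicate 1. ARID5B and GBF1 kept both with any library left out. In ARID5B exon 3 of 5 of a transcript (chr10:61939867-61940368) was at 12.8, 19.8 and 12.9 CPM in DMSO, then 4.97, 2.64 and 4.03 in osimertinib DTP and 1.90, 1.63 and 0.193 with AZD5153, while its 4 regions at the 3' end of the gene were higher than DMSO.

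Most promoters of the genes with called regions were not called themselves. Of the 336 regions higher in osimertinib DTP, 208 had a gene with a promoter region within 1 kb, taken as the one with the highest level. Of these promoters 13 were called higher and 0 lower, and their median log2 fold change was 0.79, beside 2.67 for the regions. For the 361 lower regions 255 promoters were measured, of which 7 were lower and 4 higher, with medians of 0.01 and -2.57. For the 2192 regions that were not called and had a promoter, 58 promoters were higher and 8 lower, with a promoter median of 0.46. A promoter was counted once for each region of its gene. It can lie at another TSS of the gene than the one nearest to the region. Over all promoter regions within 1 kb the median was 0.35, and 2.78% were called higher and 1.85% lower. A promoter that was not called is not shown to be unchanged. With AZD5153 against DMSO, 61 of 340 promoters of higher regions were higher, and 27 of 397 promoters of lower regions were lower with 8 higher. Among the 1918 promoters of regions that were not called, 112 were higher and 19 lower, and over all promoter regions within 1 kb 5.32% were higher and 3.18% lower.

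**Figure D5:**
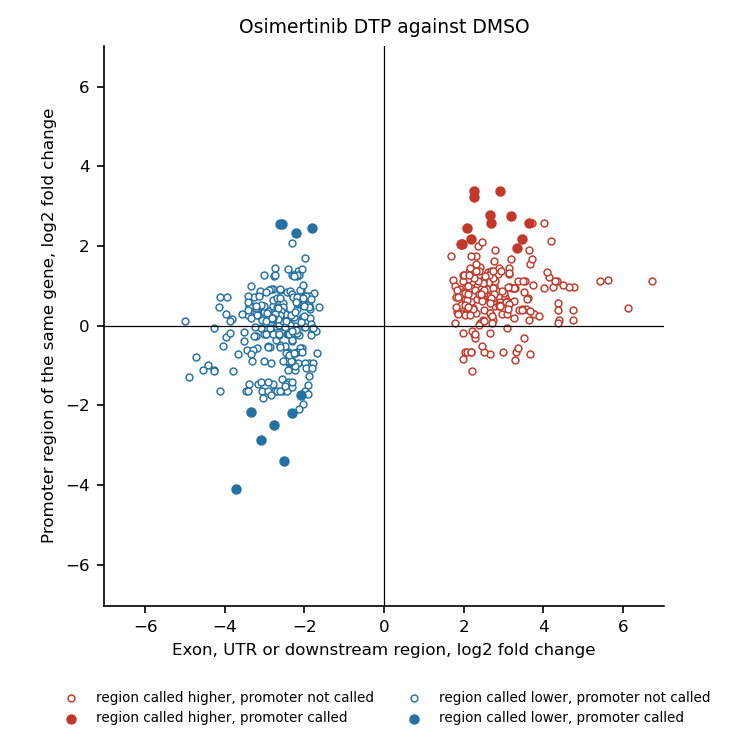
Log2 fold change in osimertinib DTP against DMSO of each called exon, UTR or downstream region (x axis) and of the highest promoter region of its gene (y axis), with filled points where the promoter was called as well. Promoters of higher regions (red) lie mostly above 0, with a median of 0.79, and those of lower regions (blue) lie on both sides of 0. The median over all promoter regions within 1 kb, not drawn, was 0.35.

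Cells that received AZD5153 after osimertinib were next compared with DMSO. Of the 3716 regions, 504 were higher (13.6%) and 550 lower (14.8%), beside 9.05% and 9.01% of all regions tested. Exon regions gave 274 higher and 349 lower calls, 5' UTR regions 25 and 12, 3' UTR regions 156 and 131, and downstream regions 49 and 58. Without TMM scaling the counts were 380 and 625, so the balance of directions depends on the scaling. The counts without osimertinib DTP + AZD5153 replicate 3 were 855 and 829, and without replicate 1 of that group 344 and 349. Without DMSO replicate 1, 2 or 3 there were 311, 161 and 157 higher calls, and 419, 240 and 309 lower calls. The 5' UTR regions then had 9 higher and 12 lower, 4 and 7, and 4 and 9, so their balance turned without any 1 DMSO library. It turned for 3' UTR regions without DMSO replicate 2 or 3 (50 and 56, 53 and 74) and for downstream regions without AZD5153 replicate 1 (36 and 33). This comparison and the one of osimertinib DTP share their DMSO libraries, so their calls are not independent.

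The higher regions of smallest p with AZD5153 against DMSO included a last exon near a chloride channel gene and regions at 2 signalling genes, PRR5L and FYN. BEST3, a bestrophin chloride channel gene (last exon, chr12:69655417-69655918), had 2.72, 1.03 and 1.61 CPM in DMSO, then 26.3, 42.9 and 26.6 in osimertinib DTP and 43.8, 47.2 and 41.4 with AZD5153 (4.61 ± 0.60 with AZD5153 against DMSO, adjusted p = 0.00114). A second last-exon region of LINC00323 (chr21:41142246-41142747) had 0.181, 0.413 and 0.402 CPM in DMSO and 10.9, 8.73 and 16.4 with AZD5153 (5.13 ± 0.68, adjusted p = 0.00114). In the 3' UTR of PRR5L, a gene whose product binds the mTORC2 complex (chr11:36463571-36464072), the levels were 0.453, 0.207 and 0.201 CPM in DMSO, then 2.68, 2.92 and 3.63 in osimertinib DTP and 12.2, 8.49 and 4.25 with AZD5153 (4.78 ± 0.70 for the last against the first, adjusted p = 0.00121). PRR5L was also called higher at its promoter region (2.64, adjusted p = 0.0044). Downstream of FYN, a Src family kinase (chr6:111657495-111657996), they were 0.816, 0.413 and 0.503 CPM in DMSO, then 5.83, 5.71 and 3.42 in osimertinib DTP and 18.3, 20.9 and 4.06 with AZD5153 (4.61 ± 0.72, adjusted p = 0.00144). For PRR5L all 3 libraries with AZD5153 were above all osimertinib DTP libraries and for FYN replicate 3 was not, and neither step from osimertinib DTP was called.

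The 5' UTR regions named by the same rule were those of SLC7A8, an amino acid transporter, and of ADAMTS10, a metalloprotease gene whose region lay in NFILZ. SLC7A8 (chr14:23142642-23143143) had 2.00, 0.310 and 0.402 CPM in DMSO and 14.3, 7.68 and 12.2 with AZD5153 (3.62 ± 0.71, adjusted p = 0.00348). ADAMTS10 (chr19:8638020-8638521) had 1.72, 0.826 and 0.704 CPM in DMSO and 27.4, 20.8 and 9.28 with AZD5153 (4.12 ± 0.66, adjusted p = 0.00148), and its promoter region was called higher too (2.41, adjusted p = 0.024). The 3' UTR region assigned to LOC105370954 lay in AGBL1 (chr15:86906848-86907349) and had 0.272, 0.103 and 0.302 CPM in DMSO and 5.21, 9.31 and 5.61 with AZD5153 (4.80 ± 0.70, adjusted p = 0.00121). The groups did not overlap in any of them.

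Lower regions of smallest p with AZD5153 against DMSO lay at genes of several kinds. The last exon of a transcript inside ZNF730, a KRAB zinc finger gene (chr19:23099707-23100208), had 31.6, 68.6 and 61.3 CPM in DMSO, then 13.3, 6.68 and 13.7 in osimertinib DTP and 1.30, 1.86 and 1.35 with AZD5153 (-5.14 ± 0.64 with AZD5153 against DMSO, adjusted p = 0.00114). Exon 3 of 10 of KPNA7, an importin alpha gene (chr7:99195955-99196456), had 14, 31 and 25.6 CPM, then 3.82, 1.81 and 3.32, then 1.00, 0.349 and 0.580 (-5.14 ± 0.69, adjusted p = 0.00114). The 5' UTR region assigned to DDX58, which encodes the RNA sensor RIG-I (chr9:32500899-32501400), had 5.08, 16.3 and 9.76 CPM in DMSO and 0.401, 0.582 and 0.193 with AZD5153 (-4.62 ± 0.73, adjusted p = 0.00143). That of FHL2 (chr2:105389510-105390011) had 11.1, 12.1 and 15.3 CPM in DMSO and 1.10, 0.698 and 1.16 with AZD5153 (-3.69 ± 0.65, adjusted p = 0.00203).

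Among 3' UTR regions, GALNT15, a glycosyltransferase gene (chr3:16200572-16201073), fell from 11.6, 28.8 and 19.5 CPM in DMSO to 0.501, 0.931 and 1.35 with AZD5153 (-4.46 ± 0.67, adjusted p = 0.00122). IL4R, the interleukin 4 receptor (chr16:27364666-27365167), fell from 5.80, 15.8 and 8.95 CPM to 0.501, 0.582 and 0.580 (-4.17 ± 0.66, adjusted p = 0.00143). A second region past FLJ42351 (chr2:112641087-112641588) fell from 27.9, 45 and 30.8 CPM to 1.80, 1.75 and 2.90 (-4.02 ± 0.58, adjusted p = 0.00121). Past SH3RF3-AS1 (chr2:109125222-109125723) the levels were 8.71, 17.9 and 13.4 CPM in DMSO and 0.501, 1.40 and 0.580 with AZD5153 (-3.97 ± 0.64, adjusted p = 0.00147), and this region lay in RANBP2. The calls of these exon, UTR and downstream regions, from BEST3 to SH3RF3-AS1, held with each library left out in turn, which was not run for the promoter calls.

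The 2 treated groups were then compared with each other. They differed in AZD5153 over the last 3 days and may also have differed in osimertinib over those days. An effect of AZD5153 alone was therefore not tested. With edgeR 0 of the 3716 regions were called in either direction, as were 0 of all 157919 (0%). At an unadjusted p under 0.05 there were 238 regions (6.40%), beside 4.44% of all regions tested, and DESeq2 called 0 higher and 2 lower. Without osimertinib DTP + AZD5153 replicate 3, 6 regions were higher and 6 lower, and 747 (20.1%) had an unadjusted p under 0.05, beside 20.1% of all regions tested. The ZNF730 region had the smallest p in exons, with a log2 fold change of -2.88 ± 0.59 (adjusted p = 0.506). Among exon regions that were higher with AZD5153 the smallest p was that of exon 9 of 20 of PITPNM3, a phosphatidylinositol transfer protein gene (chr17:6476622-6477123), which had 5.17, 10.2 and 7.64 CPM in DMSO, then 1.72, 1.11 and 1.21 in osimertinib DTP and 7.41, 5.12 and 4.45 with AZD5153 (2.06 ± 0.57, adjusted p = 1). Its libraries with AZD5153 all lay above those of osimertinib DTP and overlapped those of DMSO.

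In the other classes the smallest p values belonged to regions with the same kind of contrast. The 5' UTR of the integrin gene ITGB5 (chr3:124859084-124859585) had 3.92, 6.40 and 6.85 CPM in osimertinib DTP and 11.2, 17 and 13.9 with AZD5153 (adjusted p = 1). That of NINL, a centrosomal protein gene (chr20:25526254-25526755), had 6.60, 7.38 and 5.64 CPM and then 1.5, 1.75 and 0.773 (-2.24 ± 0.59, adjusted p = 0.989). A 3' UTR region assigned to MYL2 lay in CCDC63 (chr12:110907390-110907891) and had 3.44, 6.40 and 5.24 CPM and then 0.501, 1.28 and 0.193 (-2.84 ± 0.71, adjusted p = 0.923). Past ASB9 (chrX:15232999-15233500) the levels were 0.382, 0.278 and 0.604 CPM and then 3.71, 1.16 and 2.13, and past LGALS4 (chr19:38798984-38799485) they were 1.53, 6.82 and 9.67 and then 0.401, 1.51 and 1.16. The 2 treated groups did not overlap in any of these 5 regions, which were taken by p, and none passed the test. Over the exon, UTR and downstream regions 448 of 3716 did not overlap between these groups, and over all annotated regions 6221 of 67387.

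The 12 regions called when replicate 3 was left out were chosen by a fit without that library. A difference of replicate 3 from replicates 1 and 2 at them can follow from that choice, so their levels are given as a description. An exon region before the TSS of DCBLD2 lay inside the long non-coding RNA LINC00973 (chr3:98983067-98983568). Its levels were 15.7, 18 and 15.7 CPM in DMSO, then 4.40, 1.67 and 2.82 in osimertinib DTP, with 16.5, 15.8 and 1.93 for AZD5153 replicates 1, 2 and 3. In the 3' UTR of PHLDA1, a target of growth factor signalling (chr12:76026715-76027216), they were 6.26, 8.36 and 7.44 CPM in DMSO, then 0.860, 0.696 and 0.806 in osimertinib DTP, and 5.91, 4.07 and 0.193 with AZD5153. In both regions replicates 1 and 2 lay above every osimertinib DTP library and replicate 3 did not. Without replicate 3 the log2 fold change against osimertinib DTP was 2.43 (adjusted p = 0.0456) at LINC00973 and 2.64 (adjusted p = 0.0431) at PHLDA1, beside 1.94 and 2.12 with it. PDK4, a pyruvate dehydrogenase kinase gene, and PDHX, a component of that dehydrogenase, also had replicate 3 far below replicates 1 and 2 in an exon of PDK4-AS1 and in the 3' UTR, with 13.9, 9.77 and 2.13 CPM and 11.7, 9.42 and 0.387 CPM with AZD5153. In the opposite direction, the 3' UTRs of MRPL4 and FGD2 had 0.902, 1.16 and 7.73 CPM and 1.5, 0.931 and 12.2 CPM with AZD5153, beside 5.74 to 12.3 and 6.31 to 12.1 in osimertinib DTP. The other 6 of these 12 regions were assigned to DCBLD2, ZNF582, ZNF730, PCDH1, ONECUT3 and PHLDA1. At ZNF730 replicate 3 was at 1.35 CPM, beside 1.30 and 1.86 in replicates 1 and 2.

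Members of known pathways were examined by lists of genes. Their counts of calls are read against the shares over all regions tested, 5.58% higher and 5.13% lower in osimertinib DTP and 9.05% and 9.01% with AZD5153 against DMSO. EGFR signals through the MAPK pathway, whose output genes follow the activity of the receptor, and genes controlled by YAP and TAZ, the cofactors of the Hippo pathway, are known from cells that tolerate EGFR inhibitors. Of 10 MAPK output genes only 2 had regions here, with 5 regions. In osimertinib DTP against DMSO 4 were lower and 0 higher, at EPHA2 and PHLDA1, with a median log2 fold change of -2.54 beside 0.15 for all regions tested. A first exon of a transcript without a gene ID, inside EPHA2-AS1 and next to EPHA2, an ephrin receptor gene (chr1:16159250-16159751), went from 3.90, 7.02 and 4.63 CPM to 0.669, 0.974 and 1.01 (-2.54 ± 0.60, adjusted p = 0.0137). The region past PHLDA1 (chr12:76022033-76022534) went from 9.34, 14.5 and 14.4 CPM to 2.29, 1.67 and 3.52, and was at 2.30, 2.56 and 1.55 with AZD5153. With AZD5153 2 of the 5 were lower than DMSO, and 1 without any DMSO library, osimertinib DTP replicate 1 or 3, or AZD5153 replicate 1 or 2. Instead of 4, osimertinib DTP had 0 calls without DMSO replicate 2 or 3 or osimertinib DTP replicate 1 or 2, and 1 without osimertinib DTP replicate 3. The promoter regions of EPHA2 and PHLDA1 had log2 fold changes of 0.57 and 0.25 and were not called.

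Of the list of EGFR family genes, ligands and feedback genes, 4 of 20 genes had 6 regions, of which 2 were lower and 0 higher in osimertinib DTP and also with AZD5153 against DMSO. They were at AREG, which encodes the EGFR ligand amphiregulin, and at SPRED2, an inhibitor of RAS signalling. Exon 5 of 6 of SPRED2 (chr2:65316261-65316762) had 3.99, 3.92 and 3.72 CPM in DMSO, then 0.860, 0.974 and 0.604 in osimertinib DTP and 0.401, 0.465 and 0.966 with AZD5153 (-2.24 ± 0.64 for osimertinib DTP, adjusted p = 0.0323). Each of the 6 fits without a DMSO or an osimertinib DTP library made 0 calls in osimertinib DTP. With AZD5153 against DMSO there were 0 calls without DMSO replicate 2 or 3, 1 without DMSO replicate 1, any osimertinib DTP library or AZD5153 replicate 1 or 2, and 3 without AZD5153 replicate 3.

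YAP and TAZ targets had 30 regions at 13 of 22 genes. In osimertinib DTP 2 were higher, both in exons of ANKRD1, and 2 lower, both at DOCK5, and with AZD5153 4 were higher than DMSO, at ANKRD1 and AMOTL2, and 2 lower. The shares in osimertinib DTP, 6.67% in each direction, were near those over all regions tested. They were below the 9.04% and 9.71% of the exon, UTR and downstream regions. Exon 6 of 9 of a transcript of ANKRD1, a cardiac ankyrin repeat protein gene and classical YAP target (chr10:90916125-90916626), had 0.635, 0.516 and 0.603 CPM in DMSO, then 3.35, 1.67 and 3.42 in osimertinib DTP and 6.51, 4.65 and 8.31 with AZD5153 (3.43 ± 0.62 with AZD5153 against DMSO, adjusted p = 0.00229). At its promoter region ANKRD1 was called higher in both comparisons, by 3.39 and 3.84. At DOCK5 a last exon outside the gene (chr8:25179261-25179762) fell from 9.61, 18.5 and 12.6 CPM to 2.96, 2.23 and 2.22 (-2.45 ± 0.59, adjusted p = 0.0151). The median of the 30 regions was -0.02 in osimertinib DTP and 0.33 with AZD5153, beside 0.15 and 0.23 for all regions tested. Without DMSO replicate 2 or 3 there were 0 calls in osimertinib DTP. The higher calls numbered 1 without DMSO replicate 1 or osimertinib DTP replicate 1, 0 without osimertinib DTP replicate 3 and 7 without osimertinib DTP + AZD5153 replicate 3. The lower calls numbered 1 without DMSO replicate 1 and with the replicate number as a block, 0 without any osimertinib DTP library and 5 without replicate 2 or 3 of the AZD5153 group. With AZD5153 there were 2 higher calls without DMSO replicate 2 or 3, and 1 lower call without any DMSO library, osimertinib DTP replicate 1 or 3 or AZD5153 replicate 1.

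Immediate early and AP-1 genes had 22 regions at 9 of 25 genes, and 1 was higher and 1 lower in osimertinib DTP (4.55% each, below the shares over all regions tested). The higher one was a first exon 11.2 kb before FOS, a subunit of AP-1 (chr14:75267138-75267639), with 0.453, 0.723 and 0.603 CPM in DMSO, then 6.31, 8.49 and 7.96 in osimertinib DTP and 10.6, 14.5 and 4.25 with AZD5153 (3.65 ± 0.64 for osimertinib DTP, adjusted p = 0.00406). It kept its call with any library left out, and the promoter region of FOS changed by -0.71 and was not called. The lower one was near KLF6 and was lost without any DMSO or osimertinib DTP library and without AZD5153 replicate 1, while 5 regions of the list were higher and 3 lower without AZD5153 replicate 3. With AZD5153 3 regions near KLF6 were lower than DMSO, and 0 without DMSO replicate 2 and 1 without DMSO replicate 3 or AZD5153 replicate 1, and higher calls numbered 4 without AZD5153 replicate 2 and 2 without osimertinib DTP replicate 2 or AZD5153 replicate 3 in place of 1.

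Epithelial and mesenchymal genes had 7 regions at 6 of 23 genes, of which 1 was lower and 0 higher in osimertinib DTP. It was a first exon of a transcript without a gene ID, 39.7 kb before GRHL2, an epithelial transcription factor gene (chr8:101452216-101452717), with 41, 66.9 and 50.4 CPM in DMSO, then 4.78, 2.37 and 4.03 in osimertinib DTP and 6.81, 3.37 and 1.55 with AZD5153 (-3.81 ± 0.63 for osimertinib DTP, adjusted p = 0.00371). The call held with each library left out. With AZD5153 a 3' UTR region 95.4 kb from TWIST1 was lower as well, and it lay in no RefSeq coding gene. The lower calls in this list numbered 2 in osimertinib DTP and 4 with AZD5153 without AZD5153 replicate 3, and 1 with AZD5153 without DMSO replicate 2 or 3 or AZD5153 replicate 2.

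Matrix and adhesion genes had 30 regions at 17 of 28 genes. In osimertinib DTP 2 were higher, at COL4A1 and TNC, and 3 lower, at COL6A3, ITGB6 and LAMB3, and with AZD5153 6 were higher than DMSO, 3 of them at ITGB5, and 3 lower. In osimertinib DTP these were 6.67% and 10% of the list, beside 9.04% and 9.71% of the exon, UTR and downstream regions. Exon 27 of 28 of TNC, the matrix glycoprotein tenascin C (chr9:115023564-115024065), had 1.09, 1.24 and 0.704 CPM in DMSO, then 7.46, 9.46 and 13 in osimertinib DTP and 14.9, 24.1 and 4.45 with AZD5153 (3.28 ± 0.67 for osimertinib DTP, adjusted p = 0.00761). The promoter region of TNC changed by -0.86 and was not called. The median of the 30 regions was -0.41 in osimertinib DTP and -0.09 with AZD5153. Without DMSO replicate 2 or 3 there were 0 calls in osimertinib DTP and 1 higher call with AZD5153, and 0 and 1 lower calls with AZD5153. Leaving out each of the other libraries gave 1 to 5 higher and 0 to 6 lower calls in osimertinib DTP, and 4 to 7 higher and 1 to 6 lower calls with AZD5153.

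Cell cycle genes had 6 regions at 4 of 25 genes, of which 2 were lower in osimertinib DTP and 4 with AZD5153 against DMSO, and 0 were higher. They were at CDC25A, the phosphatase that activates cyclin-dependent kinases, and CDK6. The region at CDK6 (chr7:92639187-92639688) fell from 5.17, 17 and 11.2 CPM to 1.34, 1.11 and 1.61 (-3.02 ± 0.66, adjusted p = 0.0098), and the 3' UTR of CDC25A (chr3:48156652-48157153) fell from 5.89, 4.85 and 5.03 CPM to 1.43, 0.557 and 1.01. Without DMSO replicate 2 or osimertinib DTP replicate 2 or 3 there were 0 calls in osimertinib DTP, and 1 without DMSO replicate 1 or 3 or osimertinib DTP replicate 1. With AZD5153 3 or 4 regions were called with any library left out. Housekeeping genes had 3 regions and 0 calls. The one with the smallest p, past the glycolytic gene PKM (chr15:72237874-72238375), had 21.6, 35.9 and 20.9 CPM in DMSO and 15.5, 24.1 and 19.1 in osimertinib DTP (-0.42 ± 0.53, adjusted p = 0.687).

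Of a last list of 11 genes, which holds WWTR1 and MET, 3 had 4 regions here. In osimertinib DTP 1 was lower and with AZD5153 2 were. Exon 4 of 8 of WWTR1, which encodes TAZ (chr3:149572428-149572929), had 14.7, 21 and 15.7 CPM in DMSO, then 2.49, 1.53 and 2.22 in osimertinib DTP and 3.71, 1.63 and 1.16 with AZD5153 (-3.03 ± 0.60 for osimertinib DTP, adjusted p = 0.00626, and 0.0565 without DMSO replicate 2). The promoter region of WWTR1 changed by -0.89 and was not called. An exon of MET, a receptor tyrosine kinase gene (chr7:116774849-116775350), had 9.25, 7.33 and 10.7 CPM in DMSO, then 3.35, 0.696 and 5.24 in osimertinib DTP and 2.10, 2.68 and 0.966 with AZD5153, and was called lower only with AZD5153 (-2.21 ± 0.67, adjusted p = 0.029). That the 2 groups differ from each other at MET was not shown. With AZD5153 there was 1 call without any DMSO library, without AZD5153 replicate 1 and with the replicate number as a block, and 3 without AZD5153 replicate 2. In osimertinib DTP there were 2 calls without AZD5153 replicate 2 and 3 without AZD5153 replicate 3.

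None of the 8 regions with the highest levels, 2 in each class, was called. The highest exon region was a first exon of a transcript near PVT1, a long non-coding RNA gene (chr8:127911529-127912030), with 76.3, 83.2 and 66.3 CPM in DMSO, then 91.4, 116 and 76 in osimertinib DTP and 109.5, 123 and 129.7 with AZD5153. All of its libraries with AZD5153 lay above all DMSO libraries, but the difference did not pass the test (0.68 ± 0.43, adjusted p = 0.294). The input had 306 counts there, beside the median of 13. The last exon of a transcript near CELSR1 had 45.9 to 78.3 CPM in DMSO and 53.6 to 114 in osimertinib DTP. The highest 5' UTR regions were those of PELO and ZNF665, the highest 3' UTR regions those of ST3GAL2 and of IER2, an immediate early gene, and the highest downstream regions those past TXN2 and NDST1. IER2 (chr19:13153720-13154221) had 50.4, 43.4 and 36.3 CPM in DMSO, then 57.3, 116 and 50.4 in osimertinib DTP and 47.1, 40.7 and 156 with AZD5153. In all 8 regions osimertinib DTP replicate 2 and AZD5153 replicate 3 held the highest values of their groups, which are the libraries with the high promoter share. Adjusted p values for osimertinib DTP against DMSO lay between 0.423 and 0.937 over the 8 regions, and those for AZD5153 against DMSO between 0.169 and 0.618.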

How the data were processed

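H3K27ac ChIP-seq reads were processed by the authors. Their processing notes name BWA 0.7.17, MACS2 2.2.6, featureCounts 2.0.0, ChIPseeker 1.29.1 and hg38, with settings not given in the sources used here. The authors deposited raw counts per region for 9 H3K27ac libraries and 1 pooled input. They also deposited peaks per library, with fold enrichment, −log10 p and q values and an integer score, of which positions and q were used.

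Counts were scaled by TMM and fitted with edgeR 4.0.16 (R 4.3.3) by the quasi-likelihood test over all 9 libraries and all 169637 regions, of which 157919 passed filterByExpr, with Benjamini-Hochberg adjustment at 0.05. All 3716 regions passed. The procedure was also run on simulated counts, with no library that stood apart and no shared deviation of same-numbered replicates. That run therefore cannot show how the fit behaves with such libraries. Adjusted p values in the report are from this fit, and ± after a log2 fold change is its SE. Alternatives were DESeq2 1.42.0, other scalings (a loess offset with limma 3.58.1), filters and regions, a replicate block, and leaving out each library. Shares were compared by exact permutation (Python 3.11.15, scipy 1.17.1). Replicates are biological per the labels. Same-numbered DMSO and osimertinib DTP libraries deviated together over regions (correlations 0.334, 0.355 and 0.324), so the blocked fit was also computed. What a replicate number stands for is not stated. Intervals between libraries were not made from counts, and depth limits precision at regions with few counts.

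Regions were named by fixed rules: the smallest p per class, direction and comparison, the highest levels, the genes with most regions, and the smallest p per list. The regions and lists were chosen with earlier results of these data known. Gene bounds and biotypes came from a RefSeq GRCh38.p14 table. Sequences are not shown here, and a region or gene that these rules name but the text omits is not reported here.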

Additional observations from a re-analysis of the deposited data

How the results depend on the processing

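Of the counts of called regions in osimertinib DTP against DMSO, 336 higher became 740 with only the libraries of both groups and 102 at an adjusted p under 0.01, and 361 lower became 605 with DESeq2, 727 with only the libraries of both groups and 104 at the stricter threshold. Leaving out 1 library gave 41 to 729 higher and 25 to 769 lower. With AZD5153 against DMSO the stricter threshold left 203 higher and 260 lower, and leaving out 1 library gave 157 to 855 and 240 to 829. With AZD5153 against osimertinib DTP, DESeq2 called 2 lower, and leaving out 1 library gave 0 to 6 in each direction. The counts under all other scalings, filters and sets of regions, including the exon regions of transcripts without a gene ID left out (251 higher and 250 lower in osimertinib DTP, an alternative chosen after seeing the data), were within 1.5 times. The replicate block gave 329 higher and 361 lower calls in osimertinib DTP and 462 and 582 with AZD5153 against DMSO. It raised adjusted p values of named regions, as from 0.00273 to 0.0158 at ZNF431 and from 0.00114 to 0.00775 at BEST3, and of the regions chosen by p in either comparison with DMSO none lost its call. Calls of lower regions at SPTBN1 in osimertinib DTP went from 2 to 1, and LINC01132 and PYGB no longer had calls in both directions with AZD5153. Same-numbered libraries of the AZD5153 group did not all deviate with those of DMSO (correlations -0.018, 0.553 and 0.362) or osimertinib DTP (0.243, 0.026 and -0.240). The cause of these shifts was not tested, except that leaving out a library lowers the number of samples.

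Differences in the share of counts, in percentage points, were small and changed sign. For all 3716 regions, AZD5153 against osimertinib DTP went from 0.046 to -0.039 over the annotated regions alone and from -0.161 to 0.356 when 1 library was left out, and AZD5153 against DMSO ranged from -0.382 to 0.136. For exon regions the first became -0.012 over the annotated regions and ranged from -0.103 to 0.245, and the second ranged from -0.320 to 0.0275. For 5' UTR regions osimertinib DTP against DMSO ranged from -0.0012 to 0.0047. For 3' UTR regions it ranged from -0.0206 to 0.0519, AZD5153 against osimertinib DTP from -0.0548 to 0.0629, and AZD5153 against DMSO from -0.0422 to 0.0755, with -0.0169 over the annotated regions. For downstream regions these last 2 ranged from -0.0043 to 0.0305 and from -0.0213 to 0.0135. Counts were few at regions with low levels, and 86 of the 3716 had 0 counts in at least 1 library. Of these zero counts 68 were in osimertinib DTP + AZD5153 replicate 3 and 25 in all other libraries together, and the cause was not tested.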
